A study of Homo sapiens with 2 samples.

Results

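The genes described here encode the proteins of the mitochondrial ribosome, and they were taken as every gene whose symbol is MRPL or MRPS followed by a number, with or without a final A or B. This gave 77 of the 36601 genes in the count matrices, 49 named MRPL and 28 named MRPS. By their place in the ribosome, 51 belong to the large subunit and 26 are listed with the small subunit, since MRPS30 and MRPS18A lie in the large subunit in spite of their names. MRPS36 is kept in the small subunit list by its name, although it is known as a component of the 2-oxoglutarate dehydrogenase complex.

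Mitochondrial ribosomes translate the few messenger RNAs of the mitochondrial genome, all of which encode membrane subunits of the oxidative phosphorylation complexes. Their RNA is made inside the organelle, whereas their proteins are encoded in the nucleus, made in the cytosol and imported. The small subunit binds the messenger RNA and holds the decoding centre, and the large subunit holds the peptidyl transferase centre and the exit tunnel. Translation there starts with formylmethionine, which ties it to the supply of methionine, and cells that grow on homocysteine must make methionine from it with a vitamin B12-dependent enzyme, methionine synthase.

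Messenger RNA was counted in single cells of MDA-MB-231, a human breast cancer line of mesenchymal appearance. Parental cells (D0) were grown in RPMI-1640 with 100 µM methionine, and revertant cells (D21) were grown for 21 days in the same base medium with no methionine but with 100 µM homocysteine and 1.5 µM vitamin B12. Serum was dialysed in both, and the labels give no vitamin B12 concentration for the D0 medium. There was 1 library per condition, so that no test of a difference between the conditions was possible, and the 95% intervals below cover counting error only.

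Barcodes were kept as cells above a minimum of about 9000 UMIs (unique molecular identifiers, each standing for a captured molecule) at D0 and 5400 at D21, provided that they showed 500 or more genes and that mitochondrially encoded genes took no more than 20% of their UMIs. This left 7492 cells with 183098116 UMIs at D0 and 12487 cells with 182839048 UMIs at D21. The median cell held 18908 UMIs at D0 and 12022 at D21, and 21 barcodes occurred in both libraries. The UMI totals of the libraries were nearly equal, 199799447 at D0 and 199817213 at D21, and at D21 more cells shared the total. Whether D21 cells held less RNA or were captured less well cannot be told apart here. The part of the number of cells in the UMIs per cell was not tested. Levels are given as CPM, the UMIs of a gene over all cells of a library, scaled so that all genes there sum to 1000000. VIM, CD44 and S100A4, which mark mesenchymal cells, lay between 312 and 4157 CPM at D0 and between 415 and 2876 CPM at D21. Of epithelial genes and receptors, ESR1, PGR and CDH1 stayed under 1 CPM and EPCAM measured 9.46 and 10.1 CPM. Of the 11 markers of leukocytes, red cells, endothelium and fibroblasts only PECAM1 passed 2 CPM, at 8.89 and 6.42 CPM, the whole list summing to 12.1 and 8.82 CPM. The kit counts molecules at their 3′ ends, so that levels were not divided by transcript length.

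Together the 77 genes made up 7720 CPM at D0 and 8441 CPM at D21, a ratio of 1.09 (95% interval 1.09 to 1.10). A gene was taken as measured at 20 CPM or more in either library, which held for 75 of the 77. The 2 genes under this level were MRPL30, at 15.3 and 17.0 CPM, and MRPL53, at 4.24 and 4.07 CPM. Of the 75 measured genes, 53 were higher at D21 and 22 were lower, and their median log2 ratio of D21 to D0 was 0.12. Over all 6867 measured genes the median log2 ratio was -0.003, with 3391 higher and 3476 lower.

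The differences were small for single genes. Of the 75 members, 4 were at least 25% higher at D21, against 6.09% of all measured genes, and 0 were at least 20% lower, the same fold in the other direction, against 12.7% of all measured genes. At 1.5-fold the count was 0 in both directions, where all measured genes gave 1.12% higher and 3.47% lower. The log2 ratios of the members ran from -0.26 to 0.45, and those of the far larger set of all measured genes from -1.67 to 3.36. The lower and upper quartiles were -0.032 and 0.21 for the members and -0.17 and 0.14 for all measured genes. The counting interval of the ratio lay wholly above 1 for 50 of the 75 members and wholly below 1 for 19, where 42.2% and 43.5% of all measured genes lay so.

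**Figure D1:**
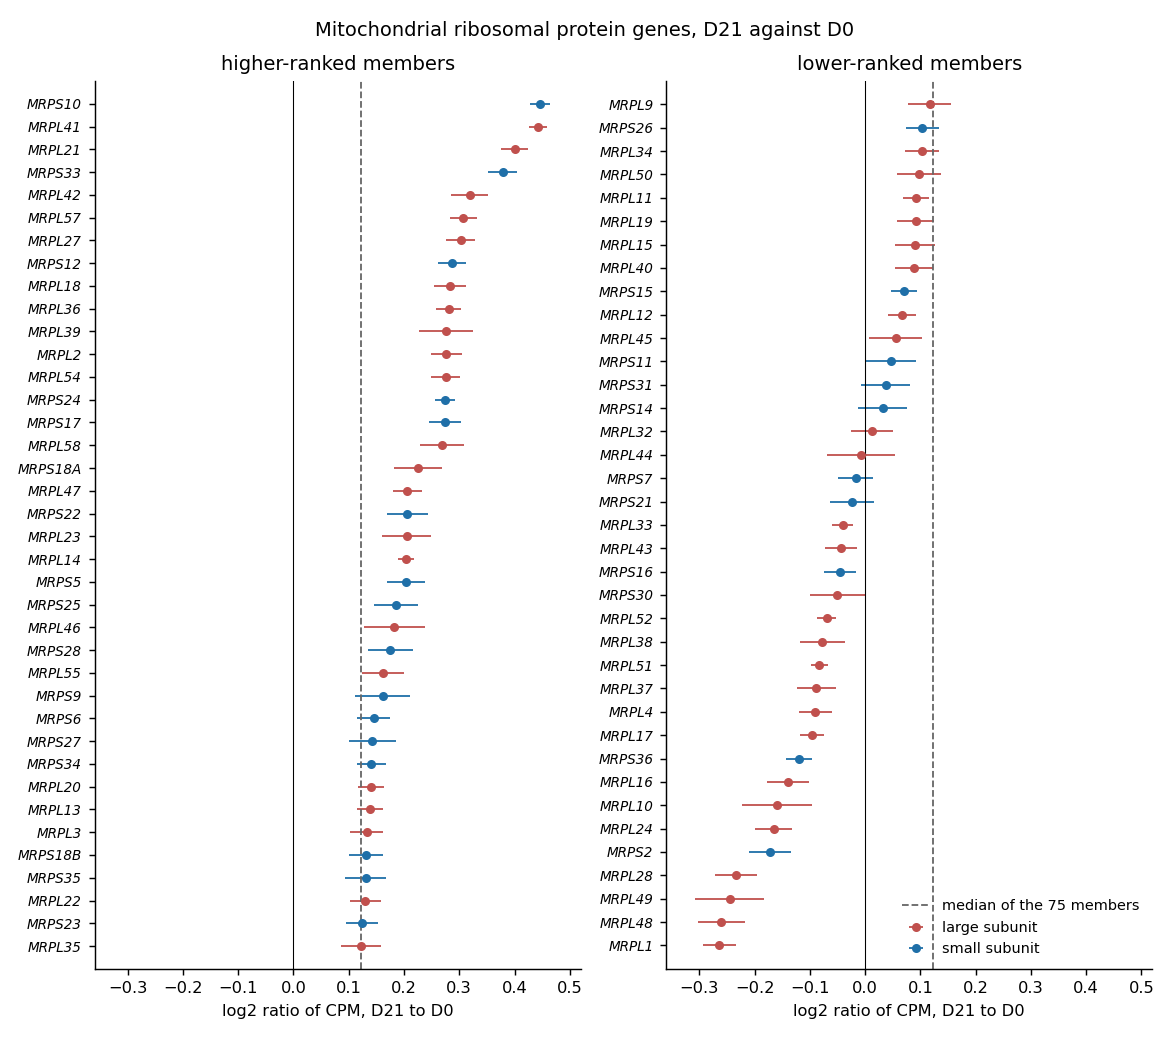
Log2 ratio of CPM at D21 to CPM at D0 (horizontal axes) for the 75 measured members in rank order, split over 2 panels. Points are single genes, red for the large and blue for the small subunit, bars are 95% counting intervals, the solid line marks equal levels and the dashed line the median of the 75 genes, 0.12. MRPS10 and MRPL41 stand at the top and MRPL1, MRPL48, MRPL49 and MRPL28 at the bottom.

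In the large subunit the summed level went from 5248 CPM at D0 to 5669 CPM at D21, a ratio of 1.08 (1.08 to 1.08). In the small subunit it was 2472 and 2772 CPM, a ratio of 1.12 (1.12 to 1.13). The counting intervals of the summed ratios did not overlap, whereas the medians over genes lay closer together, at a log2 ratio of 0.097 for the large and 0.14 for the small subunit. Of the measured genes, 32 of 49 in the large subunit and 21 of 26 in the small subunit were higher at D21. Of the 22 members that were lower at D21 the large subunit held 17, or 77.3%, where it made up 65.3% of the measured members.

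Levels spread widely within each subunit. In the large subunit MRPL14, a protein of the interface between the subunits, was highest at D0 with 368 CPM and measured 424 CPM at D21. MRPL51 followed with 344 CPM at D0 and 325 CPM at D21, and MRPL41 with 303 and 412 CPM. The lowest of the large subunit at D0 were MRPL53, MRPL30 and MRPL44, the last an RNase III-like protein with 23.2 CPM at D0 and 23.1 CPM at D21. Among the small subunit genes MRPS24 was highest with 248 CPM at D0 and 300 CPM at D21, then MRPS10 with 235 and 320 CPM, and then MRPS36 with 166 and 153 CPM. The lowest were MRPS9 with 32.9 and 36.8 CPM, MRPS11 with 43.1 and 44.5 CPM and MRPS14 with 44.0 and 45.0 CPM. Beside this spread of levels the differences between the libraries were small, with ratios from 0.833 to 1.36 over the 75 measured members.

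**Figure D2:**
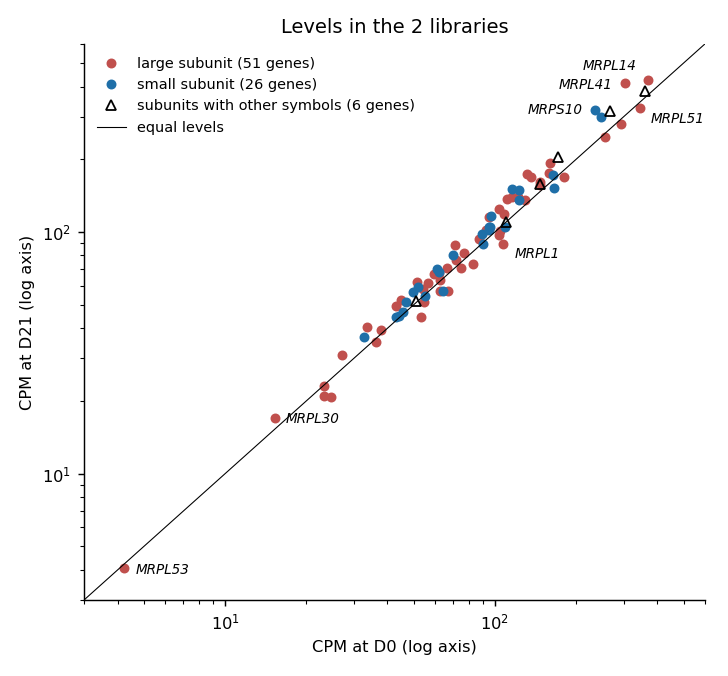
CPM at D0 (horizontal, log axis) against CPM at D21 (vertical, log axis) for the 51 large subunit genes (red), the 26 small subunit genes (blue) and 6 ribosome subunits with other symbols (triangles). Each point is a gene, and the line marks equal levels, from MRPL53 near 4 CPM to MRPL14 at 368 and 424 CPM.

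A member was taken to depart from the rest when its log2 ratio lay more than 0.3 from the median of the 75, which applied to 6 genes. MRPS10, a protein of the head of the small subunit (chr6:42206801-42217865, minus strand, GRCh38), measured 235 CPM at D0 (233 to 237) and 320 CPM at D21 (317 to 323), a ratio of 1.36 (1.35 to 1.38). MRPL41, of the large subunit (chr9:137551199-137552555, plus strand), measured 303 CPM (301 to 306) and 412 CPM (409 to 415), a ratio of 1.36 (1.34 to 1.37). These were the highest ratios of the family, each 0.32 above the median on the log2 scale. The next below them was MRPL21, 0.28 above the median and so just outside the limit.

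On the low side stood 4 genes of the large subunit. MRPL1, a protein of the mobile stalk next to the exit site for transfer RNA (chr4:77862520-77952790, plus strand), measured 108 CPM at D0 (106 to 109) and 89.5 CPM at D21 (88.2 to 90.9), a ratio of 0.833 (0.816 to 0.850). MRPL48 (chr11:73787316-73865133, plus strand) measured 53.4 CPM at D0 and 44.6 CPM at D21, a ratio of 0.835 (0.810 to 0.860). MRPL49 (chr11:65122183-65127371, plus strand) measured 24.6 and 20.8 CPM, a ratio of 0.844 (0.808 to 0.881). MRPL28 (chr16:366969-371289, minus strand) measured 66.8 and 56.8 CPM, a ratio of 0.851 (0.829 to 0.873), and its annotated body overlaps TMEM8A on the same strand, so that its count is uncertain. MRPL28 lay 0.36 below the median, and MRPS2, 0.29 below it, was the next outside the limit. The departures were read from the same ratios that ranked the genes and are a description.

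Next to MRPS10 and MRPL41 the highest ratios belonged to MRPL21, with 132 CPM at D0 and 174 CPM at D21 and a ratio of 1.32 (1.30 to 1.34), and to MRPS33, with 116 and 151 CPM and a ratio of 1.30 (1.28 to 1.32). MRPS10, MRPL41, MRPL21 and MRPS33 were the members at least 25% higher at D21. MRPL42, with 70.9 and 88.4 CPM and an interval of the ratio from 1.22 to 1.28, was just under that limit. MRPL57 had 1.24 (1.22 to 1.26), MRPL27, which lies near the peptidyl transferase centre, 1.23 (1.21 to 1.26), and MRPS12, a protein of the decoding centre, 1.22 (1.20 to 1.24).

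After the departing genes the lowest ratios were those of MRPS2 at 0.888 (0.864 to 0.911), MRPL24 at 0.892 (0.872 to 0.913), MRPL10 at 0.895 (0.857 to 0.935) and MRPL16 at 0.908 (0.884 to 0.932). MRPL10 is the base of the stalk that carries MRPL12 and meets the translation factors. It measured 23.3 CPM at D0 and 20.9 at D21, while MRPL12 measured 130 and 136 CPM, a ratio of 1.05 (1.03 to 1.07). MRPS36 measured 166 and 153 CPM, a ratio of 0.920 (0.906 to 0.936).

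The rule leaves out 6 proteins of the same ribosome because of their symbols. MRPS18C, of the small subunit, measured 172 CPM at D0 and 205 CPM at D21, a ratio of 1.19 (1.17 to 1.21). The other genes of its family had ratios of 1.17 (1.14 to 1.20) for MRPS18A, from 44.8 to 52.3 CPM, and 1.10 (1.07 to 1.12) for MRPS18B, from 89.7 to 98.3 CPM. All 3 genes of this family were therefore higher at D21, and none by 25%. AURKAIP1 had a ratio of 1.19 (1.17 to 1.20), CHCHD1 1.08 (1.06 to 1.09), GADD45GIP1 1.07 (1.06 to 1.08), PTCD3, a pentatricopeptide repeat protein at the messenger RNA entrance, 1.01 (0.984 to 1.04), and DAP3, the GTP-binding protein of the small subunit, 0.998 (0.979 to 1.02). The median log2 ratio of these 6 was 0.099.

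The other genes of mitochondrial translation did not share 1 direction. Of 25 assembly factors, which include GTPases, helicases and methyltransferases of ribosomal RNA, 16 were measured, with 10 higher and 6 lower and a median log2 ratio of 0.048. C1QBP, the most abundant of them, measured 385 and 417 CPM (ratio 1.08), METTL15, a methyltransferase of the small subunit RNA, 61.0 and 68.7 CPM (1.13), NGRN 58.4 and 68.7 CPM (1.18), and MALSU1 105 and 108 CPM (1.03), whereas DHX30, an RNA helicase, measured 46.8 and 41.8 CPM (0.892). Of 13 translation factors and associated proteins 10 were measured, with 3 higher and 7 lower and a median log2 ratio of -0.049. Among them LRPPRC, which stabilises mitochondrial messenger RNA, measured 113 and 133 CPM (1.17), its partner SLIRP 461 and 418 CPM (0.905), the elongation factor TUFM 147 and 139 CPM (0.947), and the initiation factors MTIF2 45.1 and 58.0 CPM (1.29) and MTIF3 76.0 and 61.0 CPM (0.803).

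Genes that handle the first methionine of mitochondrial proteins were low. MTFMT, which formylates the methionine on the initiator transfer RNA, had 2196 UMIs at D0 and 2045 at D21, where its level was 11.2 CPM. MARS2, which charges that transfer RNA with methionine, measured 2.82 and 3.87 CPM. METAP1D, which removes the methionine again, was the 1 gene of these 4 that reached 20 CPM in a library, with 17.2 and 22.1 CPM and a ratio of 1.29 (1.23 to 1.35). PDF, the deformylase, stood at 0.115 and 0.241 CPM.

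Of 16 other mitochondrial aminoacyl-tRNA synthetases 8 were measured, and their median log2 ratio was 0.072, with FARS2 at 86.9 and 101 CPM and IARS2 at 85.1 and 77.5 CPM. The 13 messenger RNAs that the mitochondrial ribosome translates took 58143 CPM at D0 against 65198 CPM at D21, a ratio of 1.12, with 8 higher and 5 lower. The highest ratio was that of MT-CYB, at 1.36 (1.36 to 1.37), and the lowest that of MT-ATP8, at 0.483 (0.477 to 0.488), though MT-ATP8 overlaps MT-ATP6 on 1 transcript and its count is uncertain. MT-CYB and MT-ATP8 are named for these values. The 74 nuclear genes of the oxidative phosphorylation complexes, whose products join those proteins, had a summed ratio of 0.959 (0.958 to 0.960), with 30 higher and 44 lower and a median log2 ratio of -0.037. The protein genes of the cytosolic ribosome took 191382 CPM at D0 and 201290 CPM at D21, a ratio of 1.05, and their median log2 ratio of 0.089 over 85 measured genes lay below the 0.12 of the mitochondrial ribosome.

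For the neighbouring steps of mitochondrial gene expression, 6 of 10 genes of transcription and DNA maintenance were measured and 5 were higher, among them SSBP1, the single-stranded DNA-binding protein, at 401 and 497 CPM (ratio 1.24), while TFAM, which packages the DNA, measured 106 and 101 CPM (0.954). Of 25 import genes 24 were measured, with 18 higher and a median log2 ratio of 0.13. Among the 11 chaperones and proteases, HSPD1 and HSPE1, which fold imported proteins together, measured 568 and 585 CPM at D0 and 801 and 789 CPM at D21, ratios of 1.41 and 1.35, whereas the median log2 ratio of the list was 0.024. Of the regulators of nuclear genes for mitochondria, MYC measured 89.3 CPM in either library, YY1 128 and 131 CPM, NRF1 38.8 and 43.1 CPM, GABPB1 24.9 and 26.6 CPM, and ESRRA 32.4 and 23.1 CPM (ratio 0.712).

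The cells of each library were next divided into classes by other genes, to see where the members varied. A cell was placed on the SAA side when it held more UMIs of CEMIP, SAA1, SAA2 and FLG than of AGR2, SPANXB1, SOX4 and CST1, and on the AGR2 side when it held fewer. These 8 genes were taken from earlier results of the same libraries and none is a member. The SAA side held 25.8% of cells at D0 and 51.3% at D21, the AGR2 side 69.5% and 42.0%, and 1127 cells at D0 and 2625 at D21 lay within 2 UMIs of the border, so that the classes are ranges of a score. At D0 the members summed to 7967 CPM on the SAA side and 7568 CPM on the AGR2 side, and at D21 to 8608 and 8147 CPM. The SAA side was higher for 47 of the 75 measured members at D0 and 49 at D21, close to the 61.8% and 62.0% of all measured genes. D21 was thus higher than D0 within either class, with ratios of 1.08 (1.08 to 1.08) and 1.08 (1.07 to 1.08).

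Single members differed between these classes more than their sum. On the SAA side MRPL36, MRPL11, MRPS9, MRPL33 and MRPS2 were the highest at D0 relative to the AGR2 side. MRPL36 measured 198 CPM on the SAA side and 140 CPM on the AGR2 side at D0, a ratio of 1.42 (1.38 to 1.45), and 211 and 170 CPM at D21, a ratio of 1.24 (1.22 to 1.27). MRPL11 measured 176 and 131 CPM at D0 (1.34) and 175 and 128 CPM at D21 (1.37). MRPS9 measured 38.9 and 29.4 CPM at D0 (1.32) and 42.0 and 28.9 CPM at D21 (1.45).

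The opposite order was seen for MRPL52, MRPL51, MRPL48, MRPL34 and MRPL20, all of the large subunit. MRPL52 measured 236 CPM on the SAA side and 321 CPM on the AGR2 side at D0, a ratio of 0.735 (0.721 to 0.750), and 236 and 340 CPM at D21, a ratio of 0.694 (0.682 to 0.707). MRPL51 measured 281 and 375 CPM at D0 (0.748) and 287 and 380 CPM at D21 (0.756). MRPL34 measured 73.9 and 93.3 CPM at D0 (0.792) and 83.2 and 108 CPM at D21 (0.773). In each of these genes the class with the higher level was the same in both libraries.

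Over the 75 measured members, 44 were higher on the SAA side in both libraries, 23 were lower in both and 8 changed side. All measured genes divided in nearly the same way, with 55.0% higher in both, 31.2% lower in both and 13.8% on opposite sides. The counting interval lay above 1 in both libraries for 40 members and below 1 in both for 15, beside 44.6% and 23.7% of all measured genes. Across these genes, which are not independent replicates, the log2 ratios of the SAA to the AGR2 side at D0 and at D21 had a Pearson r of 0.924 and a Spearman rho of 0.914. All 6867 measured genes gave 0.929 and 0.883. Cells of the SAA side held more UMIs, with medians of 23711 against 17486 at D0 and 13516 against 10805 at D21. Among cells of 15000 to 20000 UMIs (408 and 1240 cells at D0, 1110 and 653 at D21) Pearson's r over the members was 0.829, and over all measured genes 0.777. There 38 members were higher on the SAA side in both libraries, 18 were lower in both and 19, or 25.3%, lay on opposite sides. Of all measured genes there, 42.1% were higher in both, 30.1% lower in both and 27.8% on opposite sides. Fewer members, and fewer of all measured genes, thus held their side than over all cells. MRPL52 had log2 ratios of -0.59 and -0.47 in these cells and MRPL36 of 0.78 and 0.33.

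**Figure D3:**
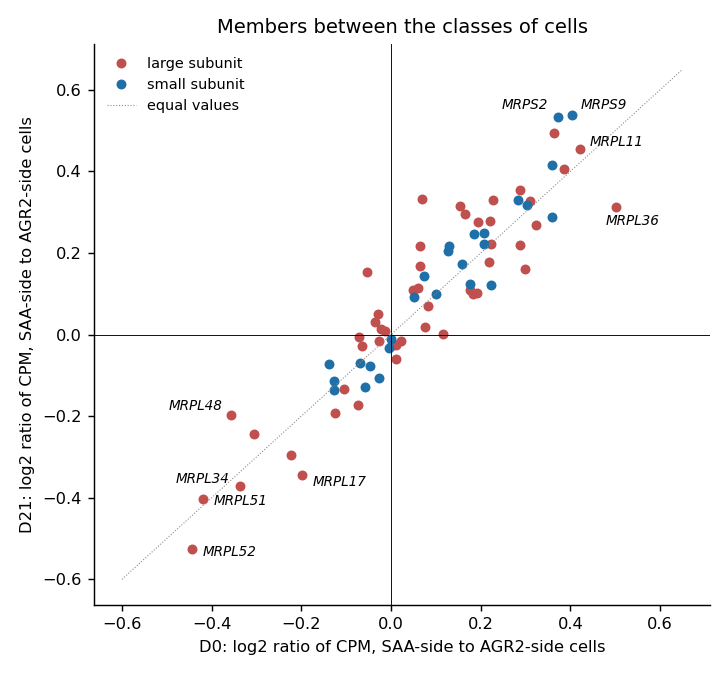
Log2 ratio of CPM in SAA-side to AGR2-side cells at D0 (horizontal) and at D21 (vertical) for the 75 measured members, red for the large and blue for the small subunit. Each point is a gene, the dotted line marks equal values, and the genes lie along it from MRPL52 at the lower left to MRPS9 and MRPL36 at the upper right.

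The shares of the classes differed between the libraries, and the pooled ratio of such a gene can fall outside the ratios within the classes. MRPL51 had a pooled ratio of D21 to D0 of 0.944 (0.934 to 0.955) although it was 1.02 on the SAA side and 1.01 on the AGR2 side. MRPL52 had a pooled ratio of 0.953 (0.942 to 0.965), and 1.00 and 1.06 within the classes. MRPS10 and MRPL41 were higher at D21 within either class, with 1.32 and 1.30 for MRPS10 and 1.24 and 1.37 for MRPL41, and MRPL1 was lower within either, with 0.857 and 0.818. The 5 members whose D21 to D0 ratio differed most between the classes were MRPL10 (0.952 on the SAA side, 0.793 on the AGR2 side), MRPL37 (1.01 and 0.875), MRPL36 (1.06 and 1.21), MRPS2 (0.863 and 0.772) and MRPL18 (1.23 and 1.10).

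The members took a smaller share of the UMIs in cells with many G2/M transcripts. In the top 20% of cells by the share of UMIs of 23 G2/M genes, the members summed to 7357 CPM at D0 against 7822 CPM in the other cells, a ratio of 0.941 (0.937 to 0.944), and to 8141 against 8529 CPM at D21, a ratio of 0.955 (0.951 to 0.958). Of the 75 members, 21 were higher in these cells at D0 and 30 at D21, where 54.5% and 59.6% of all measured genes were higher. In the top 20% by S-phase genes the ratio to the other cells was 1.06 (1.05 to 1.06) at D0 and 1.03 (1.02 to 1.03) at D21. MRPL17 stood out with log2 ratios of 0.48 and 0.36 in the S class and -0.32 and -0.24 in the G2/M class. MRPS26 was similar, with 0.36 and 0.22 in the S class and -0.44 and -0.16 in the G2/M class. MRPL51 and MRPL48 went the other way in the G2/M class, MRPL51 with 0.18 at D0 and 0.10 at D21, and MRPL48 with 0.16 and 0.056. MRPL17, MRPS26, MRPL51 and MRPL48 are named here after their values were seen.

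The members also followed the number of UMIs per cell. With the cells of each library in 4 equal groups by UMIs, the members summed to 7108 CPM in the lowest and 8062 CPM in the highest group at D0, and to 7806 and 8645 CPM at D21. Their median log2 ratio of the highest to the lowest group was 0.19 at D0 and 0.15 at D21, beside 0.13 and 0.12 for all measured genes. MRPL37 and MRPS2 had the highest ratios at D0, 0.66 and 0.57 on the log2 scale, and MRPS36, MRPL52 and MRPL51 were lower in the highest group, with -0.20, -0.17 and -0.17.

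Since D21 cells held fewer UMIs, cells of like UMIs were compared between the libraries. In cells of 10000 to 15000 UMIs the members summed to 7175 CPM for D0 and 8405 CPM for D21, a ratio of 1.17 (1.16 to 1.18). The ratio was 1.17 in cells of 15000 to 20000 UMIs, 1.12 at 20000 to 25000 and 1.11 at 25000 to 30000. Over all cells it was 1.09. Cells of like UMIs were not alike in cell cycle, since the 23 G2/M genes had a summed ratio of 1.53 in the lowest of these bins, 1.26 in the next, 1.02 at 20000 to 25000 UMIs and 0.925 in the highest, against 0.949 over all cells, and the S-phase genes ran from 1.41 to 0.898, against 1.01. The part of this in the members' ratios was not tested. The small subunit had the higher ratio in all 4 bins, from 1.15 to 1.21 against 1.09 to 1.16 for the large subunit.

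**Figure D4:**
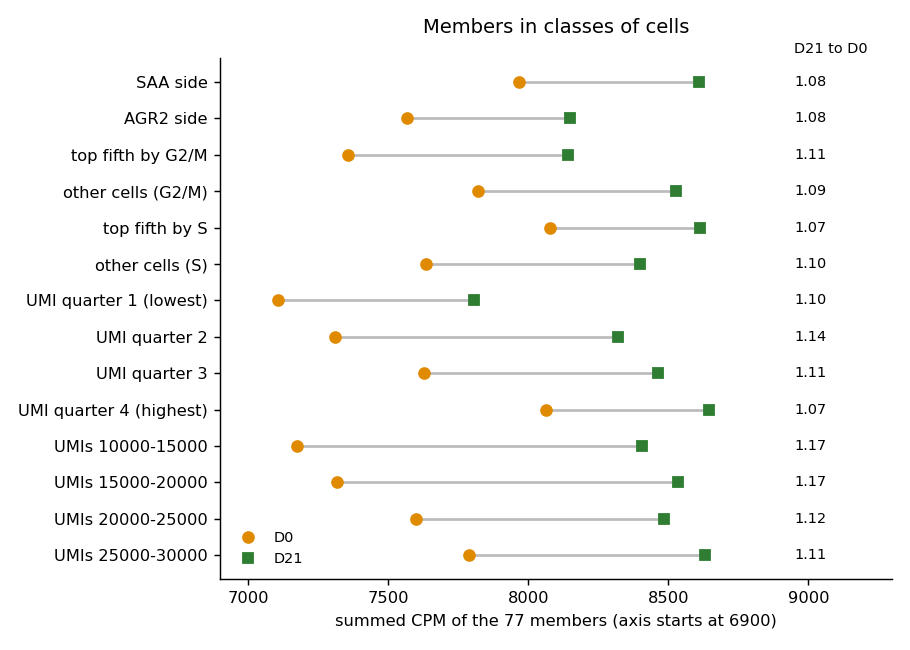
Summed CPM of the 77 members (horizontal axis, which does not start at 0) in 14 classes of cells at D0 (circles) and D21 (squares), with the ratio of D21 to D0 printed at the right. D21 lies above D0 in every class shown, by ratios of 1.07 to 1.17.

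At a common depth of 5000 UMIs drawn from each cell, a D0 cell held a median of 37 UMIs of the 77 members, with 95% of cells between 21 and 58, and a D21 cell held 41, between 23 and 64. Before thinning the medians were 140 and 99, the reverse order, since D21 cells held fewer UMIs. The ratio of variance to mean over cells was 2.48 at D0 and 2.63 at D21 for all members, above the value of 1 that pure sampling gives. The 2 distributions overlapped over most of their width. Barcodes of 10 to 100 UMIs, which hold free RNA, contained 9032 CPM of the members at D0 and 10282 CPM at D21, 1.17 and 1.22 times the level in cells, and the part of free RNA in the difference was not tested.

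The members are spread over 21 chromosomes. The median log2 ratio of the measured genes within 5 Mb was 0.056 around MRPS10, -0.10 around MRPL41 and 0.11 around MRPL1, so that none of these departing genes lay in a stretch whose other genes differed as much. Around MRPL48, MRPL49 and MRPL28 it was -0.073, -0.056 and -0.030. MRPL51 lay in a stretch of lower genes, with a median of -0.26 over 34 neighbours. The stretch around MRPL54 was lower still, with -0.28 over 94 neighbours, while MRPL54 itself was higher at D21, with a log2 ratio of 0.28.

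Many members share a promoter region with another gene. A protein-coding gene starting on the opposite strand within 1000 bases upstream was found for 15 of the 75 measured members, or 20%, beside 10.6% of all 6674 measured protein-coding genes. MRPL46 of the large and MRPS11 of the small subunit start 34 bases apart on chromosome 15 in the GENCODE annotation, and their log2 ratios were 0.18 and 0.047. MRPL36 pairs with NDUFS6, a subunit of complex I, with log2 ratios of 0.28 and 0.23, MRPL47 with NDUFB5, of the same complex, with 0.21 and 0.15, MRPL18 with TCP1, a cytosolic chaperonin subunit, with 0.28 and 0.27, and MRPL57 with SKA3 with 0.31 and 0.22. These are the pairs in which both genes were measured, and both were higher at D21, as were 53 of the 75 members in any case. The partners of the other 9 members did not reach 20 CPM or had no value, and of them 5 lay on the same side as the member, 3 on the opposite side and 1 had no value.

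Promoters of 68 members were found in the RefSeq table for GRCh38.p14, each reaching from 250 bases before to 50 after the start, and 4 short motifs of factors known to bind promoters of mitochondrial genes were searched on both strands. The ETS motif CCGGAAG, bound by GABPA among others, was in 28 promoters (41.2%), against 22.2% of genes with at least 20 CPM and 10.7% of all genes in the table. The YY1 motif AAGATGGC was in 20 (29.4%), against 6.76% and 3.03%. The NRF1 motif GCATGCGC was in 5 (7.35%), against 6.35% and 3.27%, and the E-box CACGTG in 5 (7.35%), against 11.0% and 7.43%. Of the 38 ETS matches 27 began within the 100 bases before the start, and 15 of the 21 YY1 matches began at or after it. Members with and without the ETS motif had like ratios, with a median log2 ratio of 0.11 in either set. For YY1 the medians were 0.14 with and 0.098 without the motif. The NRF1 motif and the E-box were each held by only 5 measured members. Their medians were 0.012 for NRF1 and 0.056 for the E-box, against 0.12 for the members without the motif in either case.

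The sequences below show how such matches lie, in members that differ in their ratio, and cover only bases before the start that no GENCODE exon covers. They are written 5′ to 3′ on the strand of the gene, in lower case, with every match in capitals. MRPS10, the member with the highest ratio (chr6:42217866-42218111 on the minus strand), has an ETS match 22 bases before its start. MRPL58, whose protein releases stalled ribosomes and whose ratio was 1.20 (chr17:75012420-75012669 on the plus strand), has 2 ETS matches, and MRPS18A (chr6:43687792-43688041 on the minus strand) has 1 in nearly the same place as MRPS10. MRPL22, at a ratio of 1.09 (chr5:154940823-154941069 on the plus strand), has an E-box and an NRF1 match. Outside the stretches shown, a YY1 match begins 9 bases after the start in MRPS10 and in MRPS18A, and 35 bases after it in MRPL22. MRPL28, at a ratio of 0.851 (chr16:370539-370772 on the minus strand), has none in the stretch shown, but an ETS match begins 7 bases after its start, and it is counted among the 28. The stretch shown for MRPL28 lies before its RefSeq start but inside its GENCODE body, which reaches to base 371289.
MRPS10: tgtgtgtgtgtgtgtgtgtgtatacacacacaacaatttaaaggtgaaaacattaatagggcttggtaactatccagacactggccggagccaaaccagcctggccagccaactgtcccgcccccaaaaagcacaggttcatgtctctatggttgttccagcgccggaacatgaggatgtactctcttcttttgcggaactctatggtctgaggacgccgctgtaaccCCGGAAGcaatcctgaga
MRPL58: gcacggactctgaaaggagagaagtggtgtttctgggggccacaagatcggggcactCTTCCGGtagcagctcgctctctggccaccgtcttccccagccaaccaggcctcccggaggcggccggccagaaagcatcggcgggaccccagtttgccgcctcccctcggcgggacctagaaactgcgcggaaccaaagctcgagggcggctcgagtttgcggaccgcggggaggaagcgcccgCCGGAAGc
MRPS18A: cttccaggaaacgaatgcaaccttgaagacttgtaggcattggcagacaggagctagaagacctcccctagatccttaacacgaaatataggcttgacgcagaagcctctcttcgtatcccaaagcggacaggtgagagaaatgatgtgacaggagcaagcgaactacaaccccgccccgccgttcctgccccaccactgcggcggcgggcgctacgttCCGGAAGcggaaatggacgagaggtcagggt
MRPL22: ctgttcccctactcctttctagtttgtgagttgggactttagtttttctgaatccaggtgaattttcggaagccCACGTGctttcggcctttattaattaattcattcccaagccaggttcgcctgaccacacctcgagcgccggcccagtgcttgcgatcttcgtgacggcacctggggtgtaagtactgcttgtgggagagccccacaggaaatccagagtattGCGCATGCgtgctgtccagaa
MRPL28: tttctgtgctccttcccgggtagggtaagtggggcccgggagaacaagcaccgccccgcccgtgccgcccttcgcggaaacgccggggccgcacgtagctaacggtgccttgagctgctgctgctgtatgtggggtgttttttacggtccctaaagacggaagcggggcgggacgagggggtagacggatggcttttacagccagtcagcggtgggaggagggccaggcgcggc

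Counts of some members are less certain than their intervals say. In the annotation, 13 members overlap another listed gene on the same strand, among them MRPL33 with BABAM2, MRPS6 with SLC5A3 and MRPS17 with NIPSNAP2. Pseudogenes are annotated for 33 members, 73 in all, and 0 of them are listed in the files, so that reads shared by a member and its pseudogene could not be followed. Of the departing genes, MRPS10 and MRPL49 have 2 pseudogenes each and MRPL48 has 1.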

How the data were processed

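The deposited values are UMI counts per gene and barcode, made by the authors with Cell Ranger 4 (file headers) from libraries of the 10x Single Cell 3′ kit v3.1, on GRCh38 per the submitters' processing notes. They hold all barcodes and are not normalized. No source used here gives the alignment settings or the gene annotation. The libraries hold 199799447 (D0) and 199817213 (D21) UMIs, 91.6% and 91.5% of them in cells.

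Cells were called by the limits given above, the UMI minimums having been set in earlier work on these data, and doublets were kept. Counts were summed over cells and given as CPM. Ratios have exact conditional intervals and levels exact Poisson intervals (95%, counting error only). No p-value was computed. Positions are from GENCODE 29 on GRCh38, and promoters from RefSeq. The computations were tested on simulated data and run with Python 3.11.15, numpy 2.4.6, scipy 1.17.1, pandas 2.3.3 and matplotlib 3.10.9. Members named are the 8 highest and 8 lowest ratios, the 3 highest and 3 lowest levels of each subunit, the 5 most different between state classes, and the MRPS18 family, with up to 5 genes of each other list by level at D0. Members named in comparisons of cell classes, gene pairs, printed promoters, MRPL12 and MRPL54 were chosen after their values were seen. Alternatives in cell calling, scaling, filters, weights and UMIs per cell are given below. The members and lists were chosen with earlier results of these data known.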

Additional observations from a re-analysis of the deposited data

Results flagged for a closer look

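MRPL17 was the 1 measured member whose counting intervals pointed in opposite directions in the 2 state classes. On the SAA side its level went from 163 CPM at D0 to 152 CPM at D21, a ratio of 0.928 (0.905 to 0.953), and on the AGR2 side 188 and 193 CPM, a ratio of 1.03 (1.01 to 1.05). The difference between the classes was not tested, since each class holds cells of 1 library per condition. MRPL17 also had the largest log2 ratio of the S class to other cells at D0 among the measured members, at 0.48. Its promoter is 1 of the 5 with the NRF1 motif, and a link between the motif and these values was not tested.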

How the results depend on the processing

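No paired analysis was possible because each condition has 1 library. Under 13 alternatives the summed ratio of the members, 1.09, stayed above 1 in all of them, and 8 gave a value outside its counting interval. It was 1.11 with the higher UMI minimum in both libraries, 1.09 with a minimum 2 times as high or with all barcodes, 1.11 without the 5% of cells with the most UMIs, 1.12 over genes other than mitochondrially encoded and cytosolic ribosomal ones, 1.11 as a mean over cells, 1.08 with equal weight of the state classes, and 1.14 in cells of 10000 to 30000 UMIs. The median log2 ratio was 0.16 with the scaling on other genes, 0.080 with equal weight of the classes and 0.19 in cells of 10000 to 30000 UMIs. Members at least 25% higher numbered 7 without the 5% of cells with the most UMIs (all measured genes 5.78%), 7 with the scaling on other genes (8.17%), 14 in cells of 10000 to 30000 UMIs (10.6%) and 0 at 1.5-fold. With equal weight of the classes 1 member, MRPL49, was at least 20% lower (0.785). The median of the large minus that of the small subunit stayed below 0, from -0.054 to -0.016. Single ratios were followed for 31 members, chosen by ratio, level, difference between state classes or as the MRPS18 family, which gave 403 ratios. Other members named above, MRPL52 among them, were not followed. Members whose counting interval included 1 were not counted as passing it. Among the rest, 3 ratios passed to the other side of 1. These were MRPL37 (1.08) and MRPS2 (1.06) in cells of 10000 to 30000 UMIs and MRPL51 (1.02) with equal weight of the classes. The cause was not tested. The alternative without the 21 barcodes found in both libraries was chosen after seeing the data and moved no result beyond its counting error. With 1 library per condition the variation between cultures is not known, and it is not covered by any interval.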
